A study of Mus musculus with 6 samples.

Results

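The integrins and the proteins that switch them on were examined in mature CD4 SP thymocytes lacking the histone demethylases Jmjd3 and Utx (dKO) and in wild-type cells. A gene entered if the annotation of the array gave 1 of 38 symbols, 26 integrin chains and 12 activators or adaptors, and its brightest row by mean over the 6 arrays was kept. All 38 had a row, out of 19752 genes tested. RNA came from Vα2hi CD24lo CD4 SP cells sorted from mice that all carried the OT-II TCR transgene, which gives T cells a single class II-restricted receptor, and each genotype was hybridized to 3 arrays. The dKO arrays carry the genotype label Jmd3f/f-utxf/f, and in these mice Cre driven by *Cd4* regulatory elements deleted floxed *Kdm6b* (Jmjd3) and *Kdm6a* (Utx) from the double-positive stage on. By the methods, wild-type controls were littermates without Cre that carried floxed *Jmjd3* or *Utx* alleles. The presence of Cre and the deletion therefore cannot be told apart. Cre removed the floxed exons, which encode the catalytic domain, and the paper reports from immunoblots of thymocytes that the proteins were lost. The methods describe female mice unless stated otherwise, and the age of the array mice is not in the labels. The arrays of a genotype are called biological replicates without a statement that they came from separate mice, and p-values therefore measure the spread between these samples, which may be technical.

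Integrins are heterodimers of an alpha and a beta chain that bind counter-receptors such as ICAM-1, VCAM-1 and MAdCAM-1 or matrix proteins such as fibronectin. In a resting T cell they are bent and bind weakly. Signals from the TCR or a chemokine receptor load the small GTPase Rap1 with GTP, and Rap1 effectors then bring talin and kindlin to the tail of the beta chain, which opens the receptor; this is called inside-out activation. Both chains must be made for a heterodimer to reach the cell surface.

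Expression values were deposited on the log2 scale, 1 per array, so that a difference of 1 is a change of 2-fold. Replicates of a genotype correlated with each other at 0.998 to 0.999 across genes, and arrays of different genotypes at 0.991 to 0.993. The median of all genes was 6.30, and genes below it are called dim here, because no detection calls were used. *Kdm6a* was 1.59-fold lower in dKO cells (log2 change -0.67, standard error (SE) of 0.06, adjusted p = 2.62e-05 by limma), and the log2 change of *Kdm6b* was -0.09 (adjusted p = 0.324). Each value averages probes along the transcript and does not measure the deletion itself. Of the 7 measured markers of mature CD4 T cells, all were above the median of genes, *Cd5* was lower and *Cd28* higher. Their summed linear level was 32095 to 34445 in wild-type and 33787 to 34315 in dKO arrays. Of 8 measured markers of double-positive thymocytes, 3 were higher and 2 lower (summed linear level 1620 to 1875 in wild-type and 2458 to 2710 in dKO arrays), and among 7 markers of endothelium and fibroblasts *Pecam1* was lower and 6 were not called. Of 7 dendritic cell markers, 0 were lower and 0 higher. *H2-Ab1*, 1 of these, was highest on dKO replicate 1 (7.27 against 6.69 and 6.21 on the other dKO arrays). It did not pass the test (adjusted p = 0.135, limma), and its groups overlapped. The 7 regulatory T-cell markers were all lower, with a summed linear level of 2448 to 2485 in wild-type and 1076 to 1342 in dKO arrays. Beside these marker counts, 10.0% of all genes tested were called lower and 13.1% higher. The part of these cells in the values of the members was not tested. Fewer cells of a type and less RNA per cell cannot be told apart in RNA of sorted populations.

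Among the 26 integrin chains, 10 were lower in dKO cells, 1 was higher and 15 were not called (limma, adjusted p under 0.05 over all genes). The lower share was 38.5%, against 10.0% of all genes tested, and the higher share was 3.8%, against 13.1%. The chains differed widely in how far they fell. *Itgb3*, *Itgb7* and *Itga4* fell by 2-fold or more, as did 0.582% of all genes, whereas the other 7 lower chains fell by 1.72-fold at most. Among the 12 activators and adaptors, 3 were lower and 0 were higher, with changes between -0.50 and 0.13, and at an unadjusted p under 0.05 there were 7 lower and 2 higher, where 2860 of the 19752 genes were lower and 3664 higher. Of the 12, 10 were brighter than the median gene. The median log2 change was -0.07 for integrin chains and -0.11 for activators, beside 0.01 for all genes. The dKO arrays were entirely below the wild-type arrays for 13 integrin chains and 8 activators, against 16.5% of all genes, and entirely above them for 1 chain and 2 activators, against 21.3%.

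**Figure D1:**
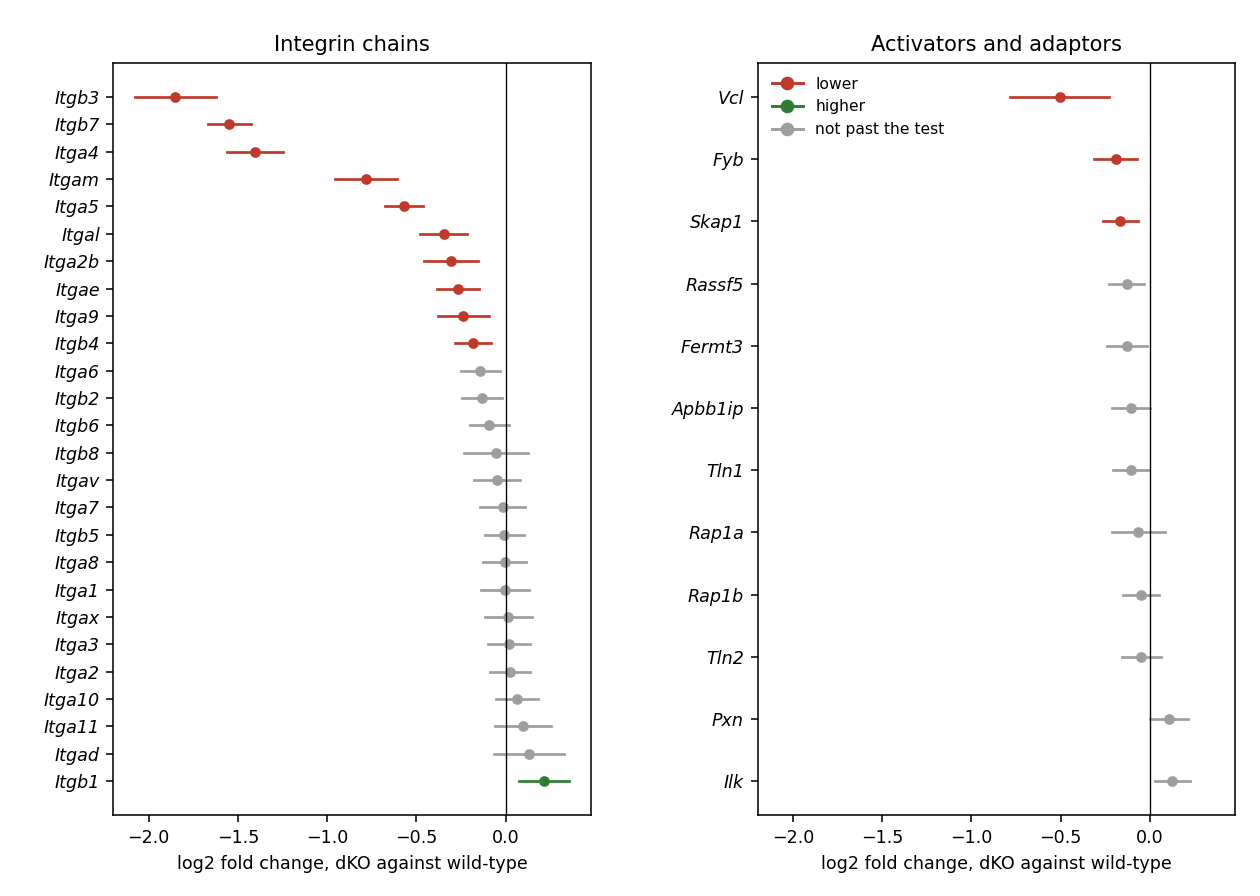
Log2 fold change of dKO against wild-type cells for the 26 integrin chains (left) and the 12 activators and adaptors (right), in order of change; points are limma estimates from 3 arrays against 3, lines are 95% confidence intervals, and colours give the call at adjusted p under 0.05. *Itgb3*, *Itgb7* and *Itga4* lie beyond -1, and the activators lie between -0.50 and 0.13.

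*Itga4* encodes the alpha 4 chain, which pairs with beta 1 as the VCAM-1 receptor VLA-4 or with beta 7 as the gut-homing receptor for MAdCAM-1. Its log2 value was 11.30, 11.28 and 11.31 in the wild-type arrays and 9.78, 9.84 and 10.06 in the dKO arrays. The groups did not overlap, and the wild-type arrays were nearly equal. The log2 change was -1.41 (SE 0.07, adjusted p = 7.56e-07, limma), which left 37.8% of the wild-type level, and *Itga4* ranked 44th among the decreases of all genes.

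*Itgb7* encodes the beta 7 chain, which joins alpha 4 or, in alpha E beta 7, the chain that binds E-cadherin on epithelium. Its log2 values were 10.29, 10.32 and 10.30 in wild-type and 8.82, 8.80 and 8.65 in dKO arrays, again with no overlap. The log2 change was -1.55 (SE 0.06, adjusted p = 1.02e-07, limma), which left 34.2% of the wild-type level. For *Itga4* and *Itgb7*, the chains of the gut-homing receptor, the difference between their changes was -0.14, with an SD of 0.03 over wild-type arrays and 0.24 over dKO arrays, and the array values of the genotypes overlapped (p = 0.5, exact two-sided permutation test). With 3 arrays against 3 this test cannot go below 0.1, so it does not show that the chains fell alike.

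The promoters of these partner genes are shown here together with that of *Itgb1*, the other partner of *Itga4* and the integrin chain that was higher. They are from RefSeq on GRCm38.p6, 250 bases before to 50 bases after the transcription start, 5′ to 3′ on the strand of the gene. Capitals mark CACCC on either strand (written GGGTG when it lies on the other strand), the core bound by Krüppel-like factors, a family known from T-cell quiescence and egress.
*Itga4* (chr2:79255176-79255475, plus strand): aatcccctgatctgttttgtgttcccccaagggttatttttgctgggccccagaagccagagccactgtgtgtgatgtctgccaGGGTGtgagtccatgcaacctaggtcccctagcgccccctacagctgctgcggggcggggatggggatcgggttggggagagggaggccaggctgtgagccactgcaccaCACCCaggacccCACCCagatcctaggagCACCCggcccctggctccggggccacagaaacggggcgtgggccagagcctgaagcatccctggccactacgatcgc
*Itgb7* (chr15:102231886-102232185, minus strand): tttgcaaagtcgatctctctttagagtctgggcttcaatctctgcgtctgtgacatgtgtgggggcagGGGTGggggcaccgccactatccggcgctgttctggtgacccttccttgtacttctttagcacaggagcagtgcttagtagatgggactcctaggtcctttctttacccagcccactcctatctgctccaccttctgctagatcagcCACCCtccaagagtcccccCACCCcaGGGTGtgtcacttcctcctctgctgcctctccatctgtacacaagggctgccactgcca
*Itgb1* (chr8:128685404-128685703, plus strand): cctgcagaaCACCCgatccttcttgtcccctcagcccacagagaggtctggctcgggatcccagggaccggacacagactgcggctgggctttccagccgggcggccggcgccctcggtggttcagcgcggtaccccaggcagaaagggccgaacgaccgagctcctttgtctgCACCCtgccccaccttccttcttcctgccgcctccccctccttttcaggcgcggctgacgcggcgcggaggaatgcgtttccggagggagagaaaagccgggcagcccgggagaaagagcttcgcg
The *Itga4* and *Itgb7* promoters held 4 matches each and that of *Itgb1* held 2. At least 1 match was found in 57.5% of 32851 mouse promoters and in 18 of the 26 members with a promoter in the table, 6 of 8 among those that were lower. The *Itga5* promoter, of a gene that fell, held none. RUNX (TGTGGT) was found in 6 of the 26 and in 16.8% of all promoters, the ETS core GGAAGT in 10 and 23.8%, the GC box GGGCGG in 12 and 35.7%, and the FOXO motif GTAAACA in 0 and 3.65%, each searched on both strands. Such matches are descriptions of these windows only. No promoter was printed for *Itgb3*.

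*Itgb3* had the largest decrease of any member. It encodes the beta 3 chain, which pairs with alpha V in a receptor for vitronectin and other matrix proteins and, in platelets, with alpha IIb in the fibrinogen receptor. The log2 values were 10.92, 10.98 and 10.95 in wild-type arrays. In the dKO arrays they were 8.81, 9.23 and 9.25, so that the groups stood far apart and dKO replicate 1 was the lowest. The log2 change was -1.85 (SE 0.10, adjusted p = 1.39e-06, limma), a level of 27.7% of wild-type and rank 22 among the decreases of all genes. The partner chain *Itgav* showed a log2 change of -0.05 (adjusted p = 0.634) with overlapping groups, 8.30 to 8.49 in wild-type and 8.34 to 8.40 in dKO arrays. *Itga2b*, the alpha IIb chain, was dim and fell by 0.31 on the log2 scale (SE 0.07, adjusted p = 0.00908 by limma, and 0.101 by the methods' t-test). Markers of platelets and megakaryocytes were dim: *Pf4*, *Ppbp* and *Gp9* were all below the gene median, none passed the test, and their summed linear level was 92 to 97 in wild-type and 89 to 92 in dKO arrays.

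**Figure D2:**
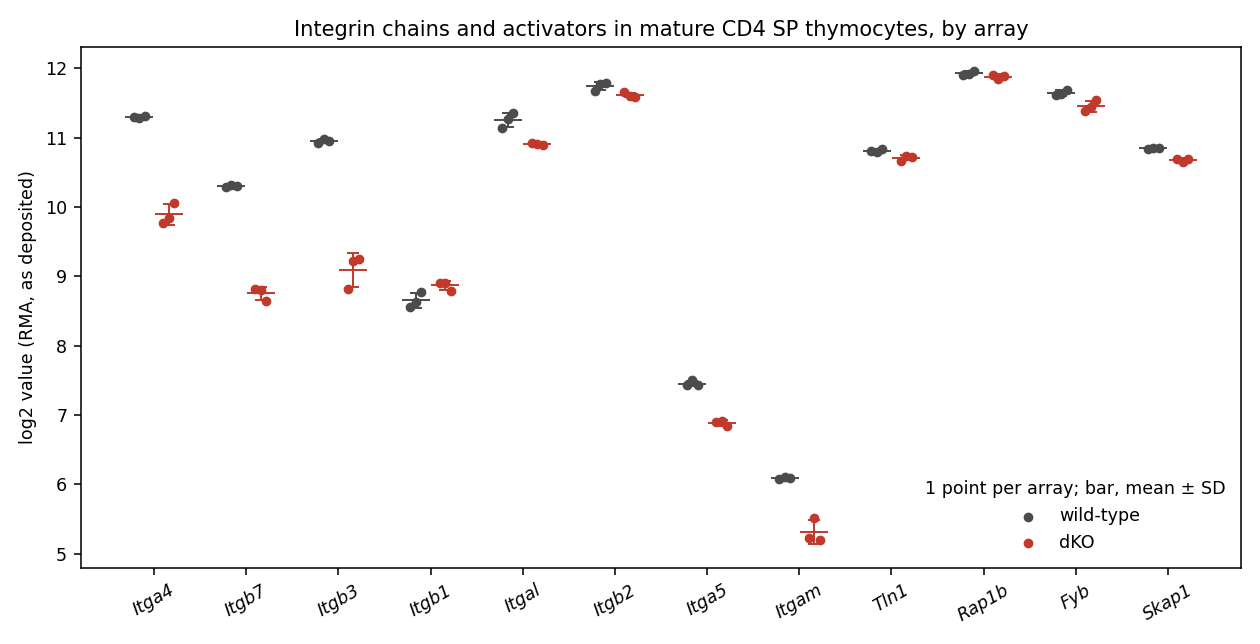
Deposited log2 value (vertical axis) of 12 members on each array, wild-type in grey and dKO in red; each point is 1 array, and bars give the mean and SD of 3 arrays. *Itga4*, *Itgb7* and *Itgb3* show the widest gaps between the genotypes, while *Tln1*, *Rap1b*, *Fyb* and *Skap1* differ by 0.05 to 0.19.

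The beta 1 chain moved the other way. *Itgb1*, which pairs with a large set of alpha chains and is the common chain of the fibronectin, laminin and collagen receptors, had log2 values of 8.56, 8.63 and 8.77 in wild-type and 8.91, 8.90 and 8.79 in dKO arrays. The highest wild-type array almost reached the lowest dKO array. The log2 change was 0.21 (SE 0.06, adjusted p = 0.0345, limma). The call was lost in 8 of 14 alternatives, among them without wild-type replicate 1 or 2 or dKO replicate 1 or 2 (adjusted p = 0.105 to 0.112), although the sign was kept in all of them. Of its brighter alpha partners, *Itga5*, which completes the fibronectin receptor VLA-5, fell by 0.57 (SE 0.05, adjusted p = 2.55e-05, limma), from 7.45 ± 0.04 to 6.89 ± 0.04 (SD, n = 3 arrays each) without overlap. *Itga6*, a chain of laminin receptors, showed a log2 change of -0.14 and did not pass the test (adjusted p = 0.0726), though its arrays did not overlap and it passed under 4 alternatives.

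Among the chains of the beta 2 family, restricted to leukocytes, *Itgal* and *Itgam* were lower, while *Itgb2*, *Itgax* and *Itgad* were not called. *Itgal*, which encodes the alpha chain of LFA-1, the main ICAM-1 receptor of T cells, had log2 values of 11.14, 11.27 and 11.35 in wild-type and 10.92, 10.91 and 10.89 in dKO arrays. The groups were apart but close, and the log2 change was -0.35 (SE 0.06, adjusted p = 0.0018, limma), or 78.6% of the wild-type level. Its partner *Itgb2* showed a log2 change of -0.13 (adjusted p = 0.0983, with a 95% confidence interval from -0.24 to -0.02), which passed only with an intensity trend and robust variances (adjusted p = 0.0273). *Itgam* encodes the alpha chain of Mac-1, known from myeloid cells. It was dim, at 6.08, 6.11 and 6.09 in wild-type and 5.23, 5.51 and 5.20 in dKO arrays, and it fell by 0.78 (SE 0.08, adjusted p = 6.78e-05, limma). Of 7 macrophage and monocyte markers, 6 were below the median of genes, *Cd68* was lower, and *Lyz2* was higher by 0.81 (adjusted p = 0.0429). *Lyz2* rose in dKO replicate 1 above all, to 6.75 against 5.03 to 5.43 in wild-type arrays, and lost its call when any array other than dKO replicate 3 was left out (adjusted p = 0.0669 to 0.126). The summed level of the 7 markers was 338 to 352 in wild-type and 332 to 376 in dKO arrays. Their part in the value of *Itgam* was not tested. *Itgax* and *Itgad*, the alpha chains that follow *Itgam* on the chromosome, showed log2 changes of 0.02 (adjusted p = 0.89) and 0.13 (adjusted p = 0.355), and a second, dimmer row of *Itgad* had -0.01.

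*Itgae*, the alpha E chain found on epithelial and regulatory T cells, was dim and fell by 0.26 (SE 0.05, adjusted p = 0.00519, limma), from 5.97 to 6.04 in wild-type down to 5.66 to 5.82 in dKO arrays. The regulatory T-cell markers fell with it, *Foxp3* by 0.89, and whether they bear on *Itgae* was not tested. *Itga9*, which binds tenascin and osteopontin, fell by 0.24 (adjusted p = 0.0235), and *Itgb4*, a laminin receptor chain known from epithelium, fell by 0.18 (adjusted p = 0.0148). *Itga9* missed the threshold without wild-type replicate 2 (adjusted p = 0.053), wild-type replicate 3 (0.0788) or dKO replicate 1 (0.0741) and by the methods' t-test (0.135), and *Itgb4* missed it without wild-type replicate 3 (0.0507) or dKO replicate 2 (0.0559).

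Of the 15 integrin chains that did not pass the test, 9 were dim and 6 were above the median gene. The dim chains, with array values of 4.30 to 5.85, were *Itga1*, *Itga2*, *Itga3*, *Itga8*, *Itga11*, *Itgax*, *Itgb5*, *Itgb6* and *Itgb8*. Most of them are known from epithelial, stromal or myeloid cells. Their log2 fold changes were between -0.09 and 0.10. The remaining 6 were *Itga6*, *Itga7*, *Itga10*, *Itgad*, *Itgav* and *Itgb2*, between -0.14 and 0.13, and their 95% confidence intervals reached at most 0.33 from 0. Of these, *Itga7*, *Itga10* and *Itgad*, with means of 6.33, 6.61 and 6.82, were near the gene median of 6.30. Over all genes, limma called lower 16.7% of the brighter 9876 and 3.34% of the dimmer 9876. Of the 10 lower integrin chains 6 were above the gene median, *Itgb4* only just (mean 6.39), and 4 were dim.

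**Figure D3:**
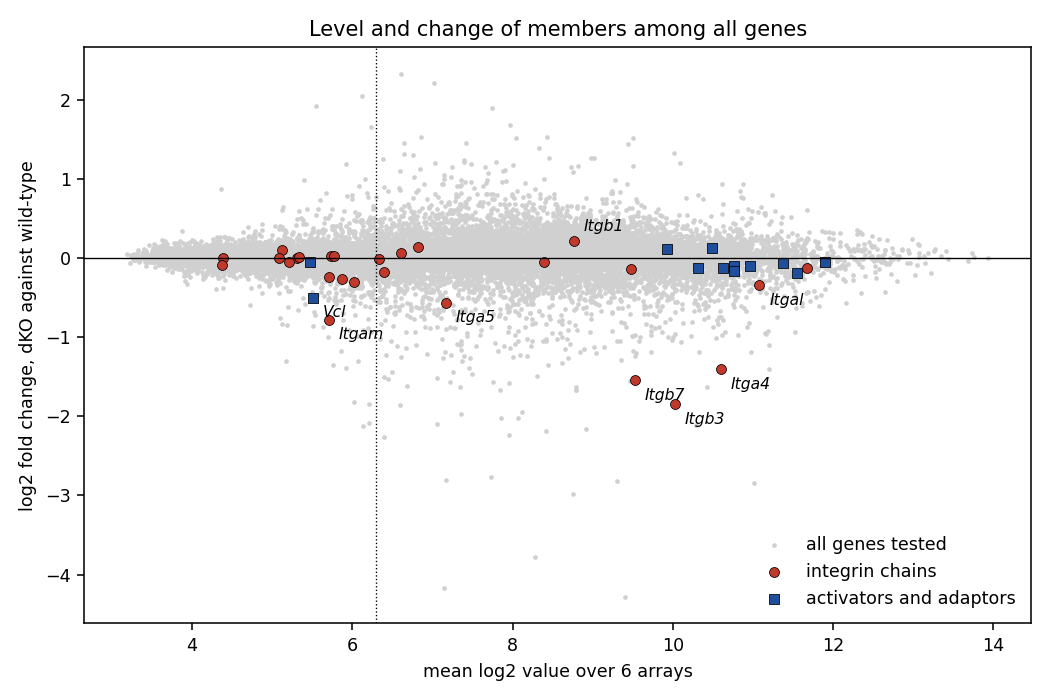
Mean log2 value over 6 arrays (horizontal axis) against log2 fold change of dKO versus wild-type cells (vertical axis) for all 19752 genes in grey, integrin chains as red circles and activators and adaptors as blue squares; the dotted line marks the gene median of 6.30. *Itgb3*, *Itgb7* and *Itga4* lie below nearly all genes of similar brightness, whereas 9 chains that did not pass the test sit at the dim end.

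Partner chains were then set against each other within arrays. For 10 known heterodimers, the log2 value of the alpha chain was subtracted from that of the beta chain on each array, and the change of this difference between genotypes was taken. The difference changed by -1.80 for *Itgav* with *Itgb3*, by -1.55 for *Itga2b* with *Itgb3* and by -1.28 for *Itgae* with *Itgb7*, the beta chain having fallen further in each. In the VCAM-1 receptor, *Itga4* fell while *Itgb1* did not, a difference of 1.62, and for *Itga5* with *Itgb1* it was 0.78. For *Itgam* with *Itgb2* the difference was 0.65, for *Itga6* with *Itgb1* 0.35, for *Itgav* with *Itgb1* 0.26, and for *Itgal* with *Itgb2* 0.22. In these 9 pairs the 3 dKO values lay entirely to 1 side of the 3 wild-type values. The exact two-sided permutation p was 0.1 in each, the smallest that 3 arrays against 3 allow, and 0.111 after Benjamini-Hochberg adjustment over the 10 pairs. Only *Itga4* with *Itgb7* had overlapping groups. *Itga2b*, *Itgae* and *Itgam* were dim, while their partner chains were not, and differences of dim genes are compressed. Whether this bears on the differences of these pairs was not tested.

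**Figure D4:**
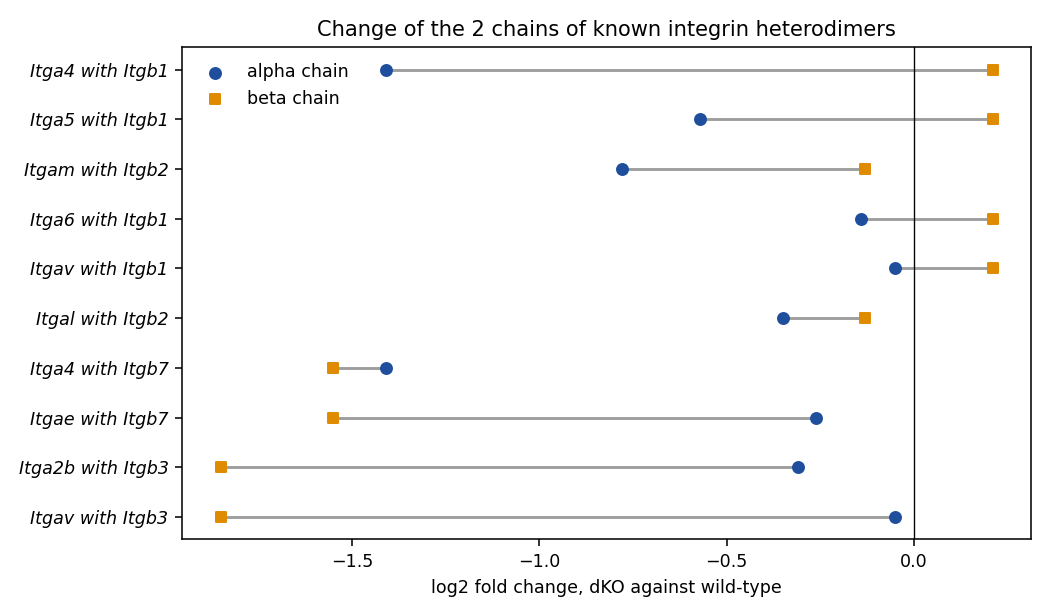
Log2 fold change (dKO against wild-type) of the alpha chain (blue circles) and beta chain (orange squares) of 10 known integrin heterodimers, joined by a line. The chains of *Itga4* with *Itgb7* lie close together at -1.41 and -1.55, while those of *Itgav* with *Itgb3* lie at -0.05 and -1.85.

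The members encoding Rap1, its effectors, talin and kindlin-3 had log2 changes between -0.13 and -0.05, and none passed the test. Over whole lists, the median log2 change was -0.07 for the 26 integrin chains and -0.11 for the 12 activators and adaptors. Other genes of inside-out activation did pass the test. Of 22 other Rap1 regulators and related genes, given below, 8 were lower and 0 higher. Of all genes tested, 10.0% were lower and 13.1% higher. Among the 22, 19 were above the gene median, and 16.7% of the brighter 9876 genes were lower. *Rasgrp2* fell by 0.998. *Rap1a* and *Rap1b*, the GTPases themselves, showed log2 changes of -0.06 (adjusted p = 0.568) and -0.05 (adjusted p = 0.523). *Tln1*, which encodes talin, had log2 values of 10.80 to 10.83 in wild-type and 10.67 to 10.73 in dKO arrays. Its log2 change was -0.10 (adjusted p = 0.138). *Fermt3*, encoding kindlin-3, the partner of talin at the beta tail, was at -0.13 (adjusted p = 0.106). *Apbb1ip*, encoding RIAM, which links Rap1 to talin, was at -0.11 (adjusted p = 0.149). *Rassf5*, encoding the Rap1 effector RAPL, was at -0.13 (adjusted p = 0.0598) and passed the test under 4 alternatives. Of these 6 members, all but *Rap1a* had every dKO array below every wild-type array, as did 16.5% of all genes. The change of *Rap1b* turned to 0.0061 after quantile normalization again. The widest 95% confidence interval among the 8 bright activators that did not pass the test reached 0.24 from 0, that of *Fermt3*.

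The adaptors ADAP and SKAP55, which bind each other and carry RIAM to the membrane after TCR signalling, were slightly lower. *Fyb*, encoding ADAP, had log2 values of 11.62, 11.62 and 11.69 in wild-type and 11.39, 11.43 and 11.54 in dKO arrays, and a log2 change of -0.19 (SE 0.05, adjusted p = 0.0278, limma). *Skap1*, encoding SKAP55, had 10.83, 10.85 and 10.85 in wild-type and 10.69, 10.65 and 10.70 in dKO arrays, and a log2 change of -0.16 (SE 0.04, adjusted p = 0.0216, limma). Neither gene had overlapping groups, but both decreases were near the threshold. Without wild-type replicate 2, wild-type replicate 3 or dKO replicate 2, the adjusted p was 0.0674, 0.0866 and 0.0895 for *Fyb* and 0.0807, 0.0551 and 0.0796 for *Skap1*, and *Fyb* also missed without dKO replicate 1 (0.0923), after quantile normalization again (0.0824) and by the methods' t-test (0.0967).

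Of the components that tie an occupied integrin to actin, *Vcl*, encoding vinculin, was dim, with 6.07, 5.77 and 5.46 in wild-type and 5.20, 5.23 and 5.35 in dKO arrays. The wild-type arrays were widely spread and 1 of them came close to the dKO arrays. The log2 change was -0.50 (SE 0.12, adjusted p = 0.015, limma), and the call was lost without dKO replicate 1 (adjusted p = 0.0564) or dKO replicate 2 (0.0561) and by the methods' t-test (0.173). *Ilk*, encoding integrin-linked kinase, was at 0.13 (adjusted p = 0.0641, called under 4 alternatives), and *Pxn*, encoding paxillin, at 0.11 (adjusted p = 0.145), and both had all dKO arrays above all wild-type arrays. *Tln2*, the second talin gene, was dim and did not pass the test.

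Beyond these members, 72 other measured genes of integrin function were examined in 4 lists, with 23 lower, 6 higher and 43 not called, and a median log2 change of -0.04. The lower share was 31.9%, against 10.0% of all genes and 16.7% of the brighter 9876, and 51 of the 72 were brighter than the median gene. The higher share was 8.3%, against 13.1% of all genes. Among 22 measured regulators of Rap1 and related genes, 8 were lower (36.4%, with 19 of the 22 among the brighter genes) and none was higher. *Rap2b* and *Rasgrp1* are among the related genes in this list. At an unadjusted p under 0.05, 9 were lower and 0 higher. *Rasgrp2*, which encodes CalDAG-GEFI, an exchange factor that loads Rap1 with GTP, had log2 values of 10.53, 10.53 and 10.45 in wild-type and 9.43, 9.52 and 9.56 in dKO arrays. The groups were far apart, and the gene fell by 0.998 on the log2 scale (SE 0.05, adjusted p = 9.93e-07, limma), just under 2-fold. *Rap1gap2*, which encodes an enzyme that turns Rap1 off, was also lower, by 0.73 (adjusted p = 1.41e-05). *Rasgrp1*, the Ras exchange factor downstream of the TCR, fell by 0.44, *Crk*, an adaptor for another Rap1 exchange factor, by 0.43, *Rapgef6*, an exchange factor, by 0.425, and *Rap2b*, a related GTPase, by 0.38. The genes *Rapgef1* and *Stk4* made up the 8, so that both positive and negative regulators were among those lower.

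Among 28 measured adaptors of adhesion sites, 10 were lower (35.7%, against 10.0% of all genes and 16.7% of the brighter genes, to which 22 of the 28 belonged) and 2 higher (7.1%, against 13.1%). *Flna*, encoding filamin A, an actin crosslinker that competes with talin for the beta tail, had log2 values of 11.60, 11.63 and 11.66 in wild-type and 10.60, 10.69 and 10.76 in dKO arrays. It fell by 0.95 (SE 0.05, adjusted p = 1.53e-06, limma), with no overlap. *Cytip*, which binds the LFA-1 regulator cytohesin-1, fell by 0.54, *Actn1*, encoding alpha-actinin-1, by 0.50, and *Evl*, of the Ena/VASP family, by 0.36. *Tns1*, encoding tensin-1, rose by 0.48 (adjusted p = 0.000155), and *Rsu1*, of the complex around integrin-linked kinase, by 0.33 (adjusted p = 0.00152). Of 12 ligand genes, 10 were dim, *Icam2* fell by 0.30 (adjusted p = 0.00234) and *Icam1* rose by 0.43 (adjusted p = 0.00256, and 0.0722 by the methods' t-test).

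Of 10 integrin-associated membrane proteins, 4 were lower and 3 higher, where 10.0% of all genes tested were lower and 13.1% higher. Of the 10, 8 were brighter than the median gene, and 16.7% of the brighter 9876 genes were lower. The tetraspanins, which gather integrins into membrane domains, moved in both directions. *Cd9* had log2 values of 8.84, 8.66 and 8.39 in wild-type and 7.44, 7.36 and 7.34 in dKO arrays, and a log2 change of -1.25 (SE 0.09, adjusted p = 1.29e-05, limma). *Cd82* had 11.38, 11.39 and 11.38 in wild-type and 12.05, 11.94 and 11.95 in dKO arrays, and rose by 0.60 (SE 0.05, adjusted p = 1.94e-05, limma). Neither gene had overlapping groups. *Cd81* rose by 0.44 (adjusted p = 0.00637, and 0.113 by the methods' t-test), and *Cd37* fell by 0.17 (adjusted p = 0.0215, lost without wild-type replicate 2 or 3 or dKO replicate 1 or 2, at 0.0504 to 0.0722). *Cd47*, a partner of beta 3 integrin and ligand of SIRP alpha, fell by 0.60 (adjusted p = 2.09e-05), and *Plaur*, the urokinase receptor, by 0.41 (adjusted p = 0.00491, and 0.0957 by the methods' t-test). *Slc3a2*, which binds the tails of beta chains, rose by 0.21 (adjusted p = 0.0241, lost without wild-type replicate 1, dKO replicate 2 or dKO replicate 3, at 0.0575 to 0.0891).

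**Figure D5:**
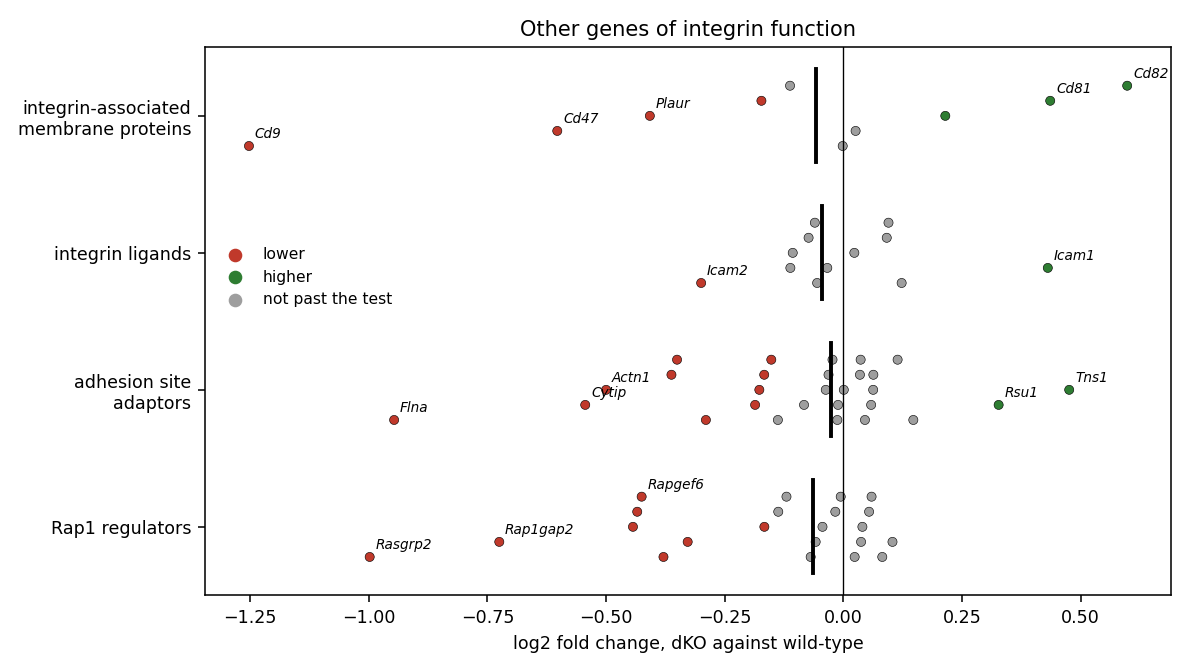
Log2 fold change (dKO against wild-type) of 72 other genes of integrin function in 4 lists; each point is a gene, coloured by its call at adjusted p under 0.05, black bars are list medians, and the vertical offset within a list only separates points. The list labelled Rap1 regulators, which includes related genes, has 8 points called lower and none higher. The membrane proteins spread to both sides, from *Cd9* at -1.25 to *Cd82* at 0.60.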

How the data were processed

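RNA of sorted mature OT-II thymocytes (3 wild-type and 3 dKO samples) was hybridized to Affymetrix arrays, Mouse Gene 1.0 ST in the methods and the row annotation, whereas the design text names Mouse Exon 1.0 ST. Partek and RMA are the tools in the submitters' notes on processing, with versions not given in the sources used here. As deposited, the values are log2 values, background-corrected, quantile normalized and summarized per transcript row, so a shift shared by most genes would not be seen, and differences of dim genes are compressed. The number of arrays limits the precision.

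Of 25254 rows, the 21496 with 1 symbol were used, with symbols updated through a RefSeq table (GRCm38.p6), and the brightest row was kept for each of 19752 genes. Left out among rows with several symbols were 3 shared by *Rpl35* and *Itgam*, 2 by *Fyb* and *Phb*, and 1 by *Gm9392* and *Rap1a*. Genotype was tested with limma 3.58.1 in R 4.3.3 with Benjamini-Hochberg adjustment over all genes. Partner chains were compared by exact permutation in Python 3.11.15, and figures were drawn with matplotlib 3.10.9. Members and lists were chosen with earlier results of these data known. Members could all be named, and of each other list up to 6 genes of smallest adjusted p and the genes of small counts. *Lyz2*, *Myl4* and *Pycard* were chosen for naming with their values in view. Of 77 other listed genes, 72 were tested and the rest are not analysed here. The test was tried on simulated data with known changes before use. The 14 alternatives included quantile normalization again, cyclic loess, the brighter 9876 genes, a mean of rows, all rows and an intensity trend with robust variances. They also included a block for the replicate number, Student's t-test, and each array left out.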

Additional observations from a re-analysis of the deposited data

How the results depend on the processing

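The same 7 chains, *Itga4*, *Itga5*, *Itgae*, *Itgal*, *Itgam*, *Itgb3* and *Itgb7*, were called lower in every alternative that tested them, and the count of lower integrin chains was 7 to 12, or 8 to 10 with an array left out. The higher integrin count of 1, from *Itgb1*, became 0 after quantile normalization again, cyclic loess, Student's t-test and the replicate block. It was 0 to 1 with an array left out. Lower activators numbered 0 to 3 with an array left out. Higher activators numbered 1, *Ilk*, after quantile normalization again, with the brighter genes, with a trend and robust variances, and with Student's t-test. Keeping the brighter genes removed the dim members from the test. *Rap1b* turned to 0.01 (0.0061) after quantile normalization again, and *Itgax* ranged from -0.036 to 0.064 with an array left out. Of 762 combinations of 55 named genes with an alternative, 697 kept direction and call, 47 lost the call, 15 gained it and 3 turned sign, and the cause was not tested. The replicate numbers were not taken to pair the samples, since not every correlation was over 0.1, although a weak pairing may be present: deviations of same-numbered arrays correlated at 0.10, 0.02 and 0.07, and 5 of 6 arrays correlated best with their own number. With the replicate block, 10 integrin chains were lower and 0 higher, and 3 activators were lower.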

Other observations

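The measured genes on either side of the 4 integrin genes with the largest decreases were read from the order of genes in the RefSeq table, 3 on each side, and were chosen after values had been seen. *Myl4*, a myosin light chain gene next to *Itgb3*, fell by 0.99 (adjusted p = 2.71e-05, limma). Next to it, *Cdc27*, a subunit of the anaphase-promoting complex, fell by 0.23 (adjusted p = 0.00493, limma). The other 4 neighbours of *Itgb3* did not pass the test. *Pycard*, which encodes the inflammasome adaptor ASC and lies 2 measured genes before *Itgam*, fell by 0.62 (adjusted p = 2.19e-05, limma), and the other 5, *Itgax* and *Itgad* among them, did not pass the test. Around *Itga4*, *Cerkl* fell by 0.28 (adjusted p = 0.0101, limma), while *Ube2e3* and *Itprid2* rose by 0.36 (0.00236) and 0.55 (3.19e-05). Around *Itgb7*, *Csad* fell by 0.22 (adjusted p = 0.0149, limma) and *Rarg*, a retinoic acid receptor gene, by 0.40 (0.00664). Beside these calls, 10.0% of all genes tested were lower and 13.1% higher. Whether the changes of neighbours bear on the members was not tested.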
